A study of Homo sapiens with 27 samples.

Results

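The comparison described here is that of ARNT-knockout clone A of Panc1 cells kept in TIFM under hypoxia with the same clone kept in regular medium under hypoxia. Panc1 is an established line from a human pancreatic carcinoma, and TIFM (Tumor Interstitial Fluid Medium) is a culture medium that imitates the nutrient supply in the fluid between the cells of pancreatic tumors. The 6 libraries concerned were taken by their labels, 3 in TIFM and 3 in regular medium, out of 27 polyA RNA libraries in 9 groups of 3. All 6 come from cells that carry the CRISPR-Cas9 knockout of ARNT and that spent 48 hours in 1% O2, so the medium is what the labels change between them. Regular medium was DMEM with fetal bovine serum and penicillin with streptomycin. The parental control cells and a separately derived ARNT-knockout clone, clone B, went through the same media at 1% O2 and serve as points of reference; the groups kept at 20% O2 in regular medium are used only to check libraries. Clone A is 1 clone, TIFM was given only at 1% O2. The labels leave unsaid whether replicates came from separate cultures, and p-values therefore measure only how far these libraries spread, which may be technical.

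ARNT is the partner subunit that the oxygen-regulated proteins HIF1A and EPAS1 need in order to bind DNA and to activate hypoxia genes. A cell that lacks it still has other ways to answer a change of medium: ATF4 raises amino acid genes when amino acids run short, SREBP factors set sterol and fatty acid synthesis by the lipid supply, MondoA follows glucose phosphates, and the unfolded protein response follows protein folding in the endoplasmic reticulum. These routes do not depend on ARNT in textbook accounts, and the gene lists below follow them.

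ARNT mRNA, from the targeted gene on chromosome 1 (150809705 to 150876768, minus strand, GRCh38), was present in all 6 libraries. Its level was 68.3, 68.2 and 68.8 CPM in regular medium and 53.9, 60.1 and 52.0 CPM in TIFM. CPM here means counts brought to the same library total, with trimmed-mean (TMM) factors over all 27 libraries. The scale compares libraries for 1 gene and not genes of different length. The change was −0.32 ± 0.17 on the log2 scale (SE, edgeR adjusted p = 0.127) and was not called. Group means of ARNT ran from 48.8 to 75.5 CPM over the 9 groups and from 63.9 to 71.4 CPM over the 3 parental groups, so RNA level does not separate knockout from parental cells, and gene-level counts check nothing about the label.

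The 6 libraries held 26057022 to 33578374 counts each. On the first principal component, which carried 81.0% of the variance, regular-medium libraries lay at −62.2, −56.1 and −54.6 and TIFM libraries at 42.7, 59.9 and 70.3. The second component (11.9%) separated the TIFM libraries from each other, at −39.0, −5.57 and 36.1 for replicates 1, 2 and 3. The biological coefficient of variation, the replicate spread beyond counting noise, was 29.3% in clone A in TIFM, 12.7% in clone A in regular medium at 1% O2, 17.4% in parental cells in TIFM, 17.3% in clone B in TIFM and 4.52% to 10.0% in the other groups.

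**Figure D1:**
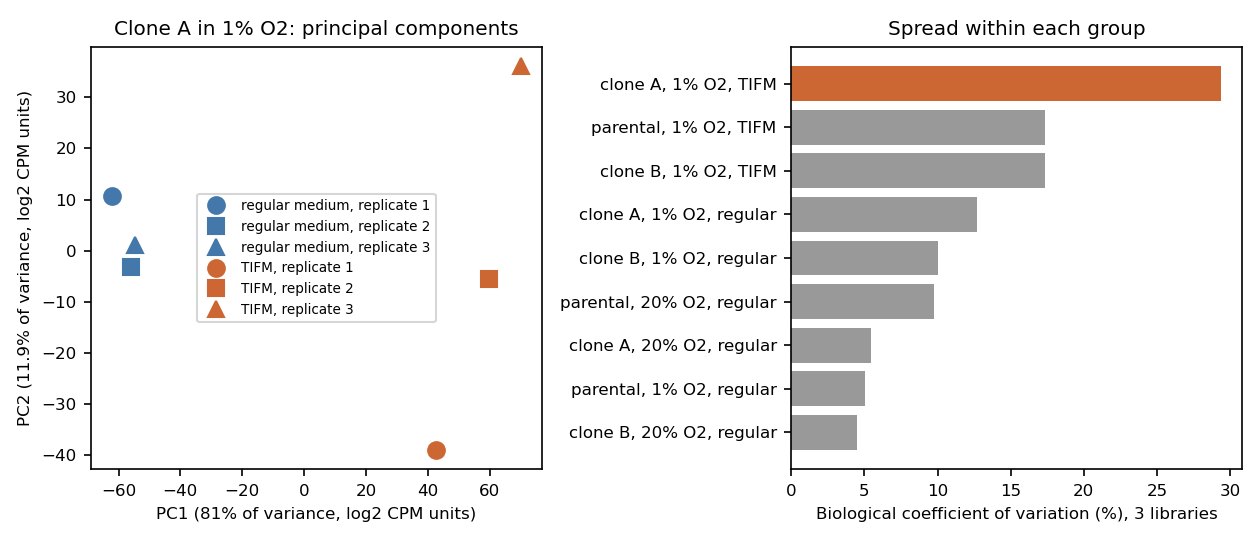
Left: the 6 libraries of clone A at 1% O2 on the first and second principal components of log2 CPM, with color for the medium and the marker shape for the replicate number. Right: bars give the biological coefficient of variation (%) of the 3 libraries in each of the 9 groups. The media separate on the first component, and clone A in TIFM has the highest spread, 29.3%.

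A few transcripts of other tissues were found in some but not all TIFM libraries of clone A. A sum over 10 liver transcripts, chosen after their values were seen, was 41.7 and 45.6 CPM in TIFM replicates 1 and 2 and 0.938 CPM in replicate 3, against at most 0.902 CPM in regular medium. It also stood at 10.6 to 41.5 CPM in parental cells in TIFM and at 14.2 CPM in clone B replicate 3 in regular medium at 1% O2, and at or under 2.91 CPM in every remaining library. A sum over 10 blood and immunoglobulin transcripts, chosen in the same way, reached 29.3 CPM in TIFM replicate 3 (IGKC 16.9 CPM, HBB 4.84 CPM, IGHG1 3.01 CPM) and at most 1.00 CPM elsewhere. The part of these traces in the results below was not tested, beyond the values without TIFM replicate 3. Of the markers of other cell types, all 7 acinar and islet genes and 6 of 7 endothelial and blood genes were under 1 CPM in all 6 libraries, as were 5 of 8 immune genes, with MS4A1 at 0. The summed immune markers (113 to 159 CPM in regular medium and 162 to 301 CPM in TIFM) were mostly CD68, which tumor cells can also express. All 7 markers of the carcinoma identity were detected. Their sum was 2220 to 3195 CPM in regular medium and 786 to 1782 CPM in TIFM. In regular medium it was mostly KRT8, at 1363 to 2045 CPM there and 257 to 698 CPM in TIFM. KRT18 overlapped between the media. Of the 7 markers 3 were called lower, 1 higher and 3 neither. In bulk RNA, fewer cells of a type and less RNA per cell cannot be told apart.

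The question of this comparison is what the nutrient medium changes in hypoxic cells that lack ARNT. Of 12651 tested genes, 6981 (55.2%) passed edgeR's quasi-likelihood test at a Benjamini-Hochberg adjusted p under 0.05, 3436 higher in TIFM (27.2%) and 3545 lower (28%). By at least 2-fold, 2010 genes rose (15.9%) and 2389 fell (18.9%), together 34.8%. Libraries of the 2 media did not overlap in 8138 genes (64.3%). A list with about 27.2% of its members higher or 28% lower stands at this background, against which the counts below are to be read. Without TIFM replicate 1 the test called 8148 genes and without replicate 2 it called 5559. Scaling by total counts alone, without TMM factors, moved the median of all genes from −0.02 to −0.32 and the higher share of the calls from 49.2% to 33.8%, so small changes in either direction hold only relative to the TMM scale.

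The glucose-responsive gene TXNIP, which encodes an arrestin that restrains glucose uptake and is a standard MondoA target, led the list of glucose-sensing targets. It lies on chromosome 1 at 145992435 to 145996600 (minus strand, GRCh38). TXNIP stood at 3.86, 3.53 and 4.44 CPM in regular medium and at 237, 311 and 138 CPM in TIFM, a 57.2-fold rise (log2 5.84 ± 0.33, edgeR adjusted p = 3.53e-06). No TIFM library came near the regular-medium range. KLF10, an early-response repressor on the same list, went from 56.6, 71.9 and 68.4 CPM to 862, 972 and 695 CPM (3.67 ± 0.21). ARRDC2, an arrestin relative of TXNIP, rose by 1.38 ± 0.22. ARRDC4, its closest relative on the list, was at 2.25, 3.12 and 2.08 CPM in regular medium and at 10.9, 7.20 and 2.91 CPM in TIFM, so the groups overlapped; its call (1.49 ± 0.42) was lost without regular-medium replicate 1. In all, 4 of 6 MondoA targets rose and none fell, with a median of 1.44.

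**Figure D2:**
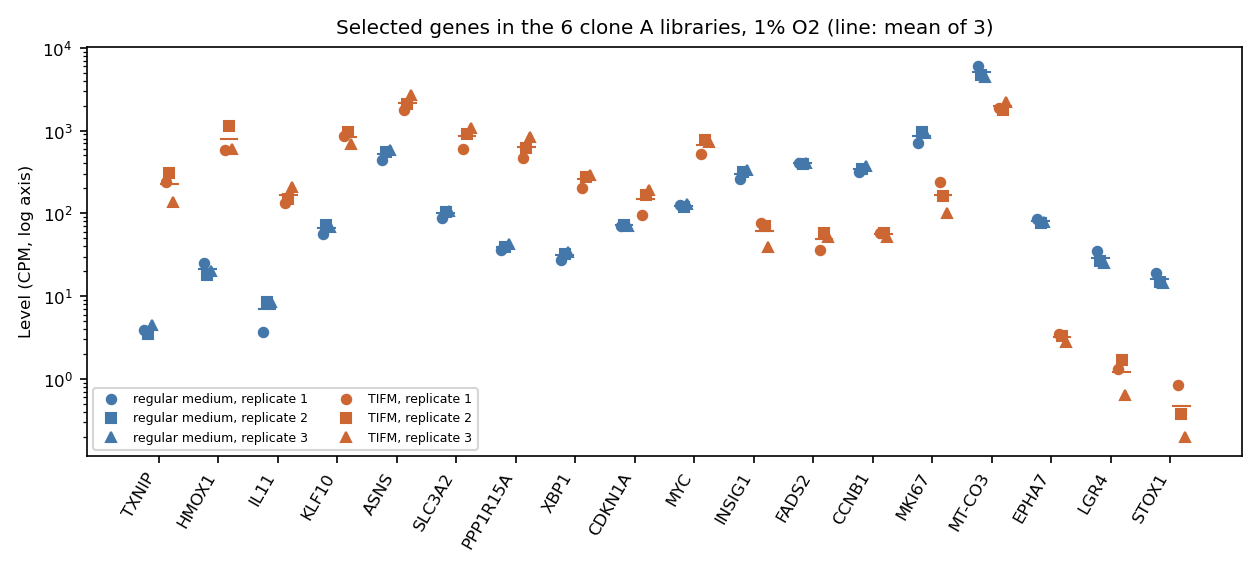
Levels (CPM, log axis) of 18 genes in the 3 regular-medium and 3 TIFM libraries of clone A at 1% O2. Points are libraries, marker shapes are replicate numbers and short lines are means of 3. TXNIP rises from 3.53 to 4.44 CPM up to 138 to 311 CPM, while EPHA7 falls from 77.3 to 85.8 CPM down to 2.81 to 3.51 CPM.

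Most genes of the amino acid response were higher in TIFM. ATF4 itself, the transcription factor at its center, went from 366, 420 and 455 CPM to 1014, 1232 and 1653 CPM (1.63 ± 0.21). Of 15 tested members of the list of ATF4 transcription and stress factors, 12 rose and 1 fell, with a median of 1.55 against −0.02 over all tested genes. PPP1R15A, the phosphatase subunit that reverses eIF2 phosphorylation, had the largest change, from 36.4, 39.6 and 42.6 CPM to 462, 615 and 834 CPM (3.99 ± 0.24, edgeR adjusted p = 3.94e-06). ATF3, a stress transcription factor, rose by 3.28 ± 0.25, the stress regulator NUPR1 by 2.48 ± 0.27 and the peptide hormone gene ADM2 by 2.38 ± 0.26. CHAC1, which degrades glutathione, went from 7.70, 10.5 and 11.3 CPM to 21.3, 35.4 and 30.8 CPM (1.55 ± 0.24). DDIT3, the death-linked factor CHOP, rose by 1.5 ± 0.28, although 39.6% of its exon length is shared with MARS and reads there can belong to either gene. TRIB3, a pseudokinase that dampens ATF4, stood at 71.4, 77.3 and 88.3 CPM in regular medium and at 89.8, 169 and 226 CPM in TIFM, and its call (1.01 ± 0.28) was lost without regular-medium replicate 1 or TIFM replicate 2. The member that fell was SESN2, at −0.63, a sensor that restrains mTORC1. No member of the list was called lower without TIFM replicate 3 or when scaled by DESeq2 size factors.

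Many enzymes and transporters known as ATF4 targets were also higher, and the part of ATF4 in this was not tested. ASNS, asparagine synthetase, on chromosome 7 (97852118 to 97872542, minus strand), went from 443, 546 and 580 CPM to 1762, 2074 and 2688 CPM (2.04 ± 0.21, edgeR adjusted p = 3.62e-05). With the aminotransferases GOT1 (1.5 ± 0.19), GPT2 (1.25 ± 0.27) and GOT2 (1.18 ± 0.20), 6 of 8 asparagine, glutamine and glutamate enzymes rose and none fell (median 0.96). Among serine, glycine and one-carbon enzymes 5 of 11 rose and none fell (median 0.65). Of these PSAT1 went from 388, 544 and 580 CPM to 1437, 1614 and 1761 CPM (1.65 ± 0.20), and PHGDH, the first enzyme of serine synthesis, from 173, 189 and 195 CPM to 309, 487 and 499 CPM (1.20 ± 0.20). The mitochondrial and cytosolic folate enzymes MTHFD1L and MTHFD1 rose by 1.07 ± 0.17 and 1.21 ± 0.20.

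Of 12 amino acid transporters 8 rose and none fell (median 1.61). SLC3A2, the heavy chain that carries several exchangers to the cell surface, went from 87.4, 104 and 108 CPM to 597, 919 and 1071 CPM (3.09 ± 0.23). SLC1A5, a glutamine carrier, rose by 2.50 ± 0.21, SLC7A1, the cationic amino acid carrier, by 2.12 ± 0.18 and the neutral carrier SLC1A4 by 2.11 ± 0.21. The cystine importer SLC7A11 differed widely among TIFM libraries, with 72.4, 133 and 142 CPM in regular medium and 723, 447 and 305 CPM in TIFM (2.08 ± 0.34). Among 20 aminoacyl-tRNA synthetases, which load amino acids onto tRNA, 10 rose and 2 fell (median 0.60). Scaled by total counts alone, 6 rose and 4 fell (median 0.32). The seryl enzyme SARS rose by 2.18 ± 0.23, whereas the glutaminyl enzyme QARS went from 101, 103 and 103 CPM to 31.8, 39.1 and 61.6 CPM (−1.23 ± 0.24) and the isoleucyl enzyme IARS fell by 0.87.

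Arginine and proline enzymes split, with 5 of 12 higher and 5 lower. ASS1, which makes argininosuccinate for arginine synthesis, went from 7.21, 5.61 and 6.07 CPM to 39.0, 51.0 and 63.0 CPM (3.00 ± 0.23). ODC1, which commits ornithine to polyamines, rose by 2.01 ± 0.24 and ARG1, arginase, by 2.90 ± 0.39 from under 1 CPM. CPS1, the first enzyme of the urea cycle, went from 9.63, 7.67 and 9.05 CPM to 1.64, 1.5 and 1.98 CPM (−2.38 ± 0.25). Of 9 polyamine genes 4 rose, among them the catabolic enzyme SAT1 (1.5 ± 0.25) and spermidine synthase SRM (1.36 ± 0.24), and 2 fell, among them AZIN2 (−2.55 ± 0.28).

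Promoter sequence shows where the letters of the ATF4 element stand in these genes. The C/EBP-ATF response element (CARE) was searched as TGATGNAA on both strands in RefSeq promoters (GRCh38.p14, 250 bases before to 50 after the start), which matched 10056 of the 12651 tested genes. It was present in 175 of these (1.74%), in 2 of 14 promoters of the ATF4 factor list, in 2 of 6 of the asparagine, glutamine and glutamate enzymes, in 1 of 7 of the serine and one-carbon enzymes, in 3 of 9 transporters and in 6 of 16 synthetases. Sites of 5 genes that rose are shown, 5′ to 3′ on the strand of the gene, with the matching letters in capitals. In CHAC1 and GOT1 the match is on the opposite strand. From the top they begin 191, 129, 68, 198 and 209 bases before the RefSeq start, and lie at chr1:212565205-212565234 (plus), chr6:150866346-150866375 (plus), chr7:97872458-97872487 (minus), chr10:99430804-99430833 (minus) and chr15:40953251-40953280 (plus).
ATF3: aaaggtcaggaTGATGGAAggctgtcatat
MTHFD1L: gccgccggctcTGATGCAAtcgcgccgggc
ASNS: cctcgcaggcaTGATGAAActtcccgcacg
GOT1: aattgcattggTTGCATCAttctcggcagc
CHAC1: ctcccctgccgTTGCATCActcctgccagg
The letters also stood in genes that did not rise: IARS, with a match 13 bases before the start, fell by 0.87, and AARS, at 0.44, was not called. The 6 synthetases with the element had a median of 0.21, against 0.60 over the list. Over all tested genes with the element 55 rose and 33 fell, and their median change was 0.10. A match of letters is a description and does not show binding.

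The unfolded protein response was also higher. Of 20 members 14 rose and none fell, with a median of 0.64. Scaled by total counts alone, 9 rose and 2 fell (median 0.36). HERPUD1, which serves the removal of misfolded proteins from the endoplasmic reticulum, went from 31.7, 36.1 and 38.7 CPM to 286, 350 and 334 CPM (3.17 ± 0.18, edgeR adjusted p = 3.53e-06). XBP1, a transcription factor of the response, went from 27.4, 31.9 and 33.8 CPM to 204, 275 and 294 CPM (3.04 ± 0.20). Gene-level counts do not tell its spliced from its unspliced mRNA. HSPA5, the chaperone BiP, rose by a smaller factor, from 803, 678 and 736 CPM to 1778, 1725 and 1769 CPM (1.23 ± 0.16), and SDF2L1 rose by 1.44 ± 0.27. Members not called included CRELD2 (−0.11), DNAJB9 (−0.01) and CANX (0.05).

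The endoplasmic reticulum stress element, searched as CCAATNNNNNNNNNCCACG on both strands, was present in 12 of 10056 promoters (0.119%) and in 6 of 19 promoters of the list (CALR, CANX, CRELD2, HSP90B1, HSPA5 and XBP1). Of these 6 genes 4 rose, and CANX and CRELD2, with the same letters, were not called. The 2 sites shown belong to the best-known members and lie at chr22:28800598-28800626 (minus) and chr9:125241386-125241414 (minus), 52 and 66 bases before the RefSeq start, with the element in capitals.
XBP1: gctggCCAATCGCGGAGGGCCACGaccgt
HSPA5: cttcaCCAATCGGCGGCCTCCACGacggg

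Among genes of oxidant, metal and heat stress, HMOX1 stood out by size. HMOX1, heme oxygenase 1, which degrades heme and is induced by oxidants and heme, lies on chromosome 22 (35380361 to 35394214, plus strand). It went from 24.8, 18 and 20.3 CPM to 590, 1150 and 599 CPM, a 36.5-fold rise (5.19 ± 0.31, edgeR adjusted p = 3.9e-06). On the NRF2 target list, to which it belongs, 6 of 17 rose and 1 fell, and the list median was 0.29, or −0.02 when scaled by total counts alone. FTL, the ferritin light chain, rose by 1.64 ± 0.22 and the thioredoxin reductase TXNRD1 by 1.17 ± 0.21. NQO1, a quinone reductase often used as the mark of NRF2, was lower, at 153, 117 and 129 CPM in regular medium and 63.2, 87.3 and 109 CPM in TIFM (−0.64 ± 0.22), a call that was lost when any of 4 libraries was left out. GCLM (0.23), GCLC (0.24) and NFE2L2 itself (−0.16) were not called. Among 7 metallothionein and zinc genes 3 rose, MT1E (2.14 ± 0.20), MT2A (from 49.8, 72.8 and 74.5 CPM to 185, 289 and 282 CPM, 1.92 ± 0.23) and MT1X (1.70 ± 0.23), all small zinc-binding proteins, and the zinc importer SLC39A10 fell (−0.96 ± 0.28). That last call was lost without TIFM replicate 2. Of 12 heat shock genes 5 rose and 1 fell, led by HSPA8, the constitutive HSP70, from 1432, 1666 and 1755 CPM to 4056, 4631 and 6366 CPM (1.62 ± 0.21). Iron genes split, 3 of 7 higher and 3 lower. TFRC, the transferrin receptor, went from 1042, 1308 and 1326 CPM to 352, 255 and 370 CPM (−1.92 ± 0.21) and IREB2, an iron-sensing RNA-binding protein, fell by 1.36 ± 0.24.

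Genes of sterol synthesis were lower in TIFM. Of 22 tested members of the cholesterol synthesis and uptake list, 17 fell and 1 rose (PMVK, phosphomevalonate kinase, at 0.61), with a median of −1.37. No member was called higher without TIFM replicate 3 or with total counts alone. STARD4, a sterol carrier, went from 112, 115 and 109 CPM to 13.1, 11.6 and 4.59 CPM (−3.53 ± 0.34, edgeR adjusted p = 3.15e-05). TM7SF2, a sterol reductase, fell by 3.20 ± 0.30. INSIG1, the sterol-controlled anchor of SREBP, went from 262, 313 and 332 CPM to 76.9, 70.2 and 38.8 CPM (−2.30 ± 0.26), and MSMO1, a methylsterol oxidase, fell by 2.22 ± 0.23. HMGCS1, the enzyme before HMG-CoA reductase, went from 163, 203 and 201 CPM to 86.8, 54.4 and 29.6 CPM (−1.73 ± 0.33). The sterol regulatory element searched as TCACNCCAC was in 1 of 16 promoters of the list, that of SREBF2, and in 110 of 10056 promoters (1.09%), which says only that these letters are absent from the other windows.

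Fatty acid genes under the same factors fell in 7 of 14 members and rose in 2 (median −0.71). FADS2, a fatty acid desaturase, went from 405, 398 and 401 CPM to 35.6, 58.3 and 52.1 CPM (−3.06 ± 0.21). ACSS2, which activates acetate, fell by 2.79 ± 0.22, ACACB, an acetyl-CoA carboxylase, by 2.18 ± 0.24 and ACLY, which makes cytosolic acetyl-CoA, by 2.10 ± 0.17. SCD, the stearoyl-CoA desaturase, went from 4264, 3751 and 3840 CPM to 1428, 1722 and 1523 CPM (−1.36 ± 0.17). The 2 that rose were ELOVL5 (0.78) and ACSL1 (0.96). On the storage and oxidation side 5 of 10 rose and 3 fell: PLIN2, a coat protein of lipid droplets, went from 9.76, 12.3 and 11.5 CPM to 54.7, 74.4 and 71.8 CPM (2.56 ± 0.21), while the oxidation enzymes CPT2 (−1.84 ± 0.33) and ACADVL (−1.43 ± 0.25) fell. Of 8 genes on the efflux list 3 rose and 1 fell, and none rose with total counts alone. The member that fell was SREBF1, which encodes an SREBP factor and no exporter, at −0.89 with all 27 libraries in 1 fit. ABCA1, the cholesterol exporter, stood at only 1.45, 1.23 and 0.893 CPM in regular medium and 3.28, 2.37 and 1.93 CPM in TIFM, and its call (1.08 ± 0.34) was lost when any of 3 libraries was left out, as was that of NR1H3 (0.62 ± 0.23) with any of 5.

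Hypoxia genes were mixed in these ARNT-knockout cells. Of 36 tested HIF targets outside glycolysis 14 rose and 10 fell (median 0.35). ADM, adrenomedullin, went from 82.1, 89.6 and 84.7 CPM to 710, 888 and 769 CPM (3.19 ± 0.18). VEGFA, the vascular growth factor, went from 112, 95.8 and 107 CPM to 215, 204 and 319 CPM (1.21 ± 0.21). In the other direction PFKFB4, which stands on this list although it regulates glycolysis, went from 16.4, 16.8 and 16.6 CPM to 2.14, 4.66 and 3.90 CPM (−2.25 ± 0.28). CA9, a carbonic anhydrase used as the mark of HIF activity, had 0 counts in the 3 regular-medium libraries and 7 in the 3 TIFM libraries and was not tested. Of the 8 tested HIF pathway components 3 rose and 2 fell. EPAS1, the HIF2A subunit, went from 275, 269 and 279 CPM to 522, 632 and 885 CPM (1.29 ± 0.20), CITED2, which competes with HIF for its coactivator, rose by 1.37 ± 0.19, and ARNT2, the paralog of ARNT, rose by 1.91 ± 0.41 but stayed at 1.09 to 1.5 CPM in TIFM. HIF1A went from 235, 197 and 210 CPM to 161, 118 and 86.1 CPM (−0.82 ± 0.23), a call lost without regular-medium replicate 1 or TIFM replicate 2.

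For glycolysis and glucose uptake 8 of 20 rose and 4 fell. The list median was 0.15, −0.04 without TIFM replicate 3 and −0.15 when scaled by total counts alone, so the list had no stable direction. HK2, hexokinase 2, went from 17.9, 25.4 and 24.0 CPM to 166, 150 and 110 CPM (2.65 ± 0.23) and SLC2A1, the glucose transporter GLUT1, from 15.5, 22.9 and 21.8 CPM to 64.3, 91.7 and 82.6 CPM (1.97 ± 0.22). SLC16A3, which exports lactate, moved the other way, from 102, 124 and 121 CPM to 15.7, 25.5 and 11.5 CPM (−2.74 ± 0.28). LDHA, lactate dehydrogenase, was 1572, 1761 and 1847 CPM in regular medium and 1001, 1071 and 1412 CPM in TIFM (−0.59 ± 0.18), and its call was lost when any of 4 libraries was left out. ALDOA and LDHB could not be tested, with 4 and 0 counts over the 3 regular-medium libraries, although both are abundant glycolytic enzymes. Other annotated genes overlap 42.3% and 33.4% of their exons, and the part of this overlap in the low counts was not tested.

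Genes of ribosome production rose. In the ribosome biogenesis list 17 of 21 were higher and 1 was lower (NOP56, −0.56), with a median of 1.45. PES1, a processing factor of the large subunit, went from 66.4, 77.7 and 80.4 CPM to 314, 500 and 558 CPM (2.59 ± 0.23), RRS1, an assembly factor, rose by 2.83 ± 0.28, RRP12 by 2.29 ± 0.25 and RRP9 by 2.13 ± 0.24. MYC, the growth factor-controlled activator of such genes, went from 125, 120 and 128 CPM to 517, 760 and 732 CPM (2.41 ± 0.19, edgeR adjusted p = 1.22e-05). Cytosolic ribosomal proteins rose in 33 of 43 tested members and fell in none (median 1.10). With total counts alone 28 rose and 3 fell (median 0.80), and 31 rose and 2 fell without TIFM replicate 3 (median 0.78). RPL24 went from 443, 486 and 536 CPM to 1567, 1777 and 2270 CPM (1.92 ± 0.19) and RPL9 from 298, 273 and 301 CPM to 832, 991 and 1882 CPM (2.07 ± 0.28). This list was not equal in the TIFM libraries: its median change was 0.60 in replicate 1, 0.93 in replicate 2 and 1.53 in replicate 3, and the share of all counts on ribosomal protein genes was 3.84%, 4.81% and 6.37% against 2.67% to 2.85% in regular medium. Genes of short total exon length had higher changes beside them. With all tested genes cut into 5 equal bins by exon length, the median change was 0.31 in the shortest bin and −0.30 in the longest, and the difference was smallest in replicate 1 (0.13 and −0.17) and largest in replicate 3 (0.34 and −0.47). The part of transcript length in the ribosomal protein result was not tested.

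Transcripts of mitochondrial DNA fell in 10 of 13 genes and rose in none (median −0.60). MT-CO3, a subunit of cytochrome c oxidase, went from 6088, 4725 and 4459 CPM to 1849, 1784 and 2242 CPM (−1.39 ± 0.20, edgeR adjusted p = 0.000214), MT-ATP6 from 4041, 2880 and 2707 CPM to 1302, 1345 and 1783 CPM (−1.14 ± 0.21), and MT-CYB fell by 0.85 ± 0.20. MT-CO2 (−0.23), MT-ND4 (−0.31) and MT-ND4L (−0.28) were not called. Nuclear genes of the same respiratory complexes did not fall with them: 17 of 37 rose and 1 fell (NDUFB5, −0.62), with a median of 0.35. In TIFM replicates 1, 2 and 3 the list median was 0.25, 0.36 and 0.62, and the part of exon length was not tested. Scaled by total counts alone, 10 rose and 4 fell (median 0.04). Among these ATP5MC1, the ring subunit of ATP synthase, went from 114, 147 and 152 CPM to 271, 418 and 448 CPM (1.44 ± 0.22), and COX7A2 rose by 1.30 ± 0.21.

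In the mitosis list 16 of 23 fell and 1 rose (UBE2C, 0.77), with a median of −1.21. CCNB1, cyclin B1, went from 316, 344 and 376 CPM to 58.0, 57.9 and 51.7 CPM (−2.64 ± 0.18, edgeR adjusted p = 4.94e-06), CENPE, a kinetochore motor, from 109, 136 and 142 CPM to 21, 21.4 and 10.5 CPM (−2.88 ± 0.28), and MKI67, the proliferation antigen, from 698, 956 and 931 CPM to 242, 160 and 101 CPM (−2.37 ± 0.30). KIF20A, a motor of cytokinesis, fell by 2.39 ± 0.18. CDK1, the partner kinase of cyclin B, overlapped between media, at 174, 292 and 292 CPM in regular medium and 273, 117 and 71.9 CPM in TIFM (−0.71 ± 0.42, edgeR adjusted p = 0.17). Of 30 DNA replication genes 15 rose and 4 fell (median 0.51), but with total counts alone 9 rose and 7 fell (median 0.22). MCM2, a helicase subunit, went from 93.6, 135 and 136 CPM to 492, 840 and 779 CPM (2.51 ± 0.24), the origin subunit ORC6 rose by 2.07 ± 0.24 and GINS3 by 1.70 ± 0.21. DSCC1, which loads the clamp for cohesion, went from 18.5, 28.6 and 26.9 CPM to 4.78, 3.54 and 2.62 CPM (−2.76 ± 0.29), and POLE2 (−0.91), POLE (−0.64) and CDC45 (−0.59) also fell. CDKN1A, the CDK inhibitor p21, went from 71.0, 73.2 and 71.1 CPM to 95.2, 166 and 191 CPM (1.05 ± 0.24). Of 9 p53 targets 3 rose and 2 fell, with the nuclease AEN at 3.97 ± 0.30 and the p53 ligase MDM2 at −1.37 ± 0.22, from 91.5, 121 and 120 CPM to 54.0, 41.6 and 34.6 CPM.

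**Figure D3:**
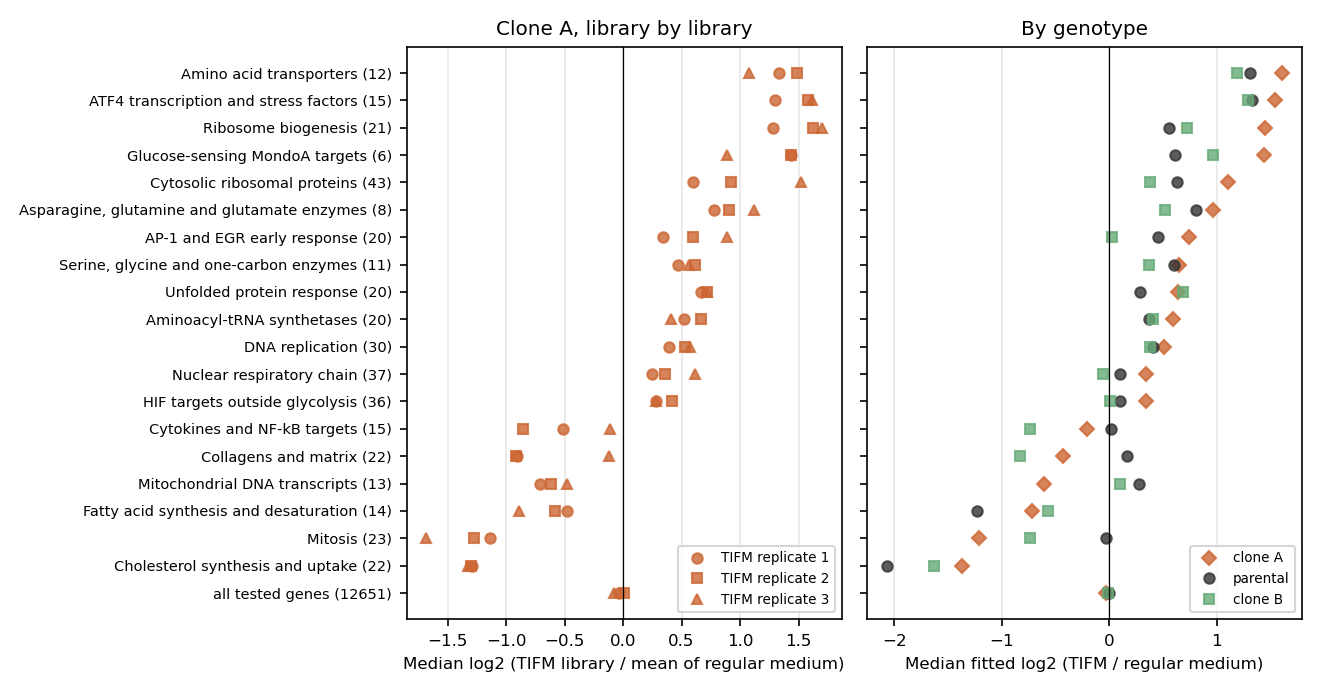
Median log2 change from regular medium to TIFM in gene lists, with the number of tested genes in brackets. Left: each TIFM library of clone A against the mean of its 3 regular-medium libraries. Right: fitted medians in clone A, parental cells and clone B. The mitosis median is −1.21 in clone A, −0.03 in parental cells and −0.73 in clone B, and the cholesterol median is lowest in parental cells, −2.07.

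Signalling genes showed separate early-response and inflammatory patterns. IL11, a cytokine of the IL6 family, went from 3.70, 8.61 and 8.42 CPM to 135, 150 and 211 CPM, a 23.6-fold rise (4.56 ± 0.34, edgeR adjusted p = 9.95e-06). It stands on the cytokine and NF-kB list, in which 3 of 15 rose and 7 fell. CCL2, which attracts monocytes, went from 10.1, 4.35 and 4.73 CPM to 0.401, 0.333 and 2.47 CPM (−2.66 ± 0.65), CSF1, the macrophage growth factor, from 96.4, 52.5 and 56.0 CPM to 5.45, 9.37 and 28.5 CPM (−2.27 ± 0.51), and CXCL8 (−3.09 ± 0.63) was under 1 CPM in all 6 libraries. TIFM replicate 3 was the highest of the TIFM libraries for CCL2 and CSF1, and without it the changes were −4.10 for CCL2, −3.22 for CSF1 and −4.37 for CXCL8. Of 20 early-response genes 11 rose and 4 fell (median 0.75), among them DUSP1, a phosphatase of MAP kinases (2.18 ± 0.31), FOSL1, an AP-1 subunit (2.17 ± 0.32), and in the other direction EGR1 (−1.60 ± 0.25). Of 14 YAP and SRF targets 5 rose and 2 fell, with SRF itself at 1.96 ± 0.18 and ANKRD1 at 3.83, 4.45 and 4.38 CPM in regular medium and 39.7, 28.6 and 9.68 CPM in TIFM (2.62 ± 0.43).

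Epithelial genes as a list stood near the background for falls, with 6 of 17 lower (28% of all tested genes were). Only 1 was higher, a share under the 27.2% of all tested genes. AGR2, a secretory epithelial protein, went from 40.5, 31.7 and 31.6 CPM to 2.07, 2.71 and 3.41 CPM (−3.69 ± 0.25), MUC1, a membrane mucin, from 8.92, 5.58 and 5.39 CPM to 0.602, 0.666 and 0.247 CPM (−3.68 ± 0.39), and the keratin KRT8 from 2045, 1363 and 1392 CPM to 257, 451 and 698 CPM (−1.79 ± 0.32). The member that rose was KRT7 (1.39 ± 0.25), while CDH1, E-cadherin, was at 1.84 to 2.81 CPM in regular medium and 2.14 to 2.62 CPM in TIFM (0.11 ± 0.29). The list's fitted median was 0.11, with the sign opposite to most calls, and −0.19 with total counts alone. Of 17 mesenchymal genes 4 rose and 3 fell. SNAI1, a repressor of epithelial genes, went from 7.25, 8.30 and 8.39 CPM to 19.6, 35.9 and 64.3 CPM (2.30 ± 0.36). Its relative SNAI2 rose by 2.96 ± 0.39 at low levels, from 0.193, 0.505 and 0.446 CPM to 3.31, 3.29 and 2.47 CPM. VIM, vimentin, moved the other way, from 3999, 5025 and 5282 CPM to 2058, 2688 and 2854 CPM (−0.93 ± 0.19). Collagens and matrix fell in 7 of 22 and rose in 1, the proteoglycan BGN (3.32 ± 0.32), and COL1A1 went from 106, 122 and 111 CPM to 21.2, 20.7 and 38.4 CPM (−2.10 ± 0.26). Here TIFM replicate 3 stood apart, with a list median of −0.12 against −0.90 and −0.92 in replicates 1 and 2, and without it 12 of 22 fell.

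Immune presentation and interferon genes had no common direction. Of 15 interferon-stimulated genes 3 rose and 6 fell, with the RNA sensors IFIH1 (−2.16 ± 0.38) and DDX58 (−1.37 ± 0.25) lower and ISG20 higher (1.68 ± 0.38). Of 15 genes of MHC class I presentation 6 rose and 2 fell, or 5 and 5 with total counts alone: HLA-B rose by 1.57 ± 0.23, while the peptide trimming enzyme ERAP2 (−2.91 ± 0.37) and the loading chaperone TAPBP (−1.41 ± 0.24) fell. HLA genes are near-identical in parts, so reads can be split between them. Of 17 autophagy and lysosome genes 6 rose and 2 fell, led by SQSTM1, the cargo receptor p62, from 218, 233 and 230 CPM to 905, 1474 and 1497 CPM (2.49 ± 0.21, with 22% of exon length shared with another gene), and GABARAPL1 (2.10 ± 0.19).

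The largest rises by fold were mostly of genes nearly silent in regular medium. ASTL, a metalloprotease gene, had 0 counts in the 3 regular-medium libraries and 362 in the 3 TIFM libraries, at 3.34, 5.29 and 6.67 CPM, and was at least 157-fold higher against a floor of 3 counts over the group. SIGLEC1, a lectin known from macrophages, had 1 count against 477, a ratio of 620 (95% exact interval 111 to 24528, counting error only), with 3.61, 4.79 and 12.5 CPM in TIFM. DHRS2, a short-chain dehydrogenase, went from 0.29, 0.126 and 0.119 CPM to 14.1, 18.2 and 16.5 CPM (6.47 ± 0.35), NPC1L1, a sterol importer, from at most 0.258 CPM to 5.12, 4.75 and 10.8 CPM (5.23 ± 0.47), and STKLD1, a kinase-like gene, from 0.998, 1.23 and 0.953 CPM to 21.8, 30.6 and 37.7 CPM (4.80 ± 0.28). CFL1, the actin-severing protein cofilin, counted only 0.612, 0.379 and 0.566 CPM in regular medium and 10.3, 12.4 and 13.1 CPM in TIFM (4.5 ± 0.29). These levels are low for a gene that most cells transcribe strongly, and MUS81 overlaps 19.0% of its exons, so that its change is uncertain.

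The largest falls included several receptors. EPHA7 is an ephrin receptor. It went from 85.8, 77.3 and 78.6 CPM to 3.51, 3.33 and 2.81 CPM, a 25.2-fold fall (−4.65 ± 0.22, edgeR adjusted p = 3.53e-06). STOX1 (−5.01 ± 0.41), a winged-helix protein, led by size, from 18.9, 14.9 and 14.2 CPM to 0.836, 0.375 and 0.198 CPM. LGR4, an R-spondin receptor of the WNT pathway, went from 34.7, 26.6 and 25.4 CPM to 1.30, 1.71 and 0.642 CPM (−4.56 ± 0.33), UNC5C, a netrin receptor, from 81.4, 80.8 and 85 CPM to 6.25, 4.83 and 3.75 CPM (−4.06 ± 0.24), and the transcription factor SOX21 from 25.5, 21.4 and 23.7 CPM to 1.27, 1.62 and 1.43 CPM (−4.05 ± 0.23). ITGB8, an integrin subunit, fell by 4.81 ± 0.41 and COL21A1, a collagen, by 4.32 ± 0.28. These genes were picked among those in which the libraries of the 2 media did not overlap, so the lack of overlap is no further result.

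TIFM at 1% O2 was also given to parental cells and clone B, which allows a direct test of where clone A answered differently. Across 12443 genes tested in both, log2 changes of clone A and parental cells had a Pearson r of 0.736, and across 12495 genes those of clone A and clone B had an r of 0.765 (across genes, which are not independent replicates). The change was larger in size in clone A for 76.0% of genes against parental cells and for 66.8% against clone B. Clone A in TIFM also had the largest replicate spread, 29.3%, and its part in these shares was not tested. In parental cells 6141 of 13203 genes were called (46.5%) and 1525 (11.6%) were called with at least a 2-fold change, and in clone B 7498 of 13057 (57.4%) and 2490 (19.1%). The response of clone A minus that of parental cells was called in 3539 of 13562 genes (26.1%), 1743 higher (12.9%) and 1796 lower (13.2%). Minus that of clone B it was called in 3252 of 13446 genes (24.2%), 1675 higher (12.5%) and 1577 lower (11.7%). Both tests use the same 6 clone A libraries and are not independent. The counts were sensitive to single libraries: against parental cells 2342 without parental regular-medium replicate 3 and 5711 without clone A TIFM replicate 1, and against clone B from 1663 without clone A TIFM replicate 2 to 6151 without clone A TIFM replicate 1.

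HMOX1 differed from both references. Parental cells had 94.3, 86.7 and 113 CPM in regular medium and 213, 317 and 159 CPM in TIFM, and clone B had 68.6, 34.7 and 41.5 CPM and 160, 158 and 153 CPM, so clone A began lower and ended higher than both. Its response exceeded that of parental cells by 3.98 ± 0.39 (SE, edgeR adjusted p = 2.72e-05) and that of clone B by 3.48 ± 0.39 (edgeR adjusted p = 0.0005). Over the whole cholesterol list 21 of 22 members fell in parental cells (median −2.07, against 23% of all genes called lower) and 22 of 22 in clone B (median −1.63, against 29.4%). The response of clone A was higher than that of parental cells in 10 of 22 members (12.9% of all genes) and lower in none. It was higher than that of clone B in 7 (12.5% of all genes) and lower in none.

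CDKN1A moved in opposite directions. It fell in parental cells (−0.85 ± 0.15; 98.5, 105 and 107 CPM to 53.8, 71.5 and 46.5 CPM) and in clone B (−0.82 ± 0.12) and rose in clone A, a difference of 1.92 ± 0.31 against parental cells (edgeR adjusted p = 0.000746) and 1.86 ± 0.29 against clone B (edgeR adjusted p = 0.00208). SNAI1 was not called in either reference, at 10.9, 10.9 and 10.9 CPM in parental regular medium and 8.41, 11.9 and 8.97 CPM in TIFM, and its response in clone A was 2.49 ± 0.44 and 2.47 ± 0.44 higher. MYC also rose in parental cells, by 0.75 ± 0.12, and in clone B, by 0.81 ± 0.11, and its response in clone A was larger by 1.67 ± 0.23 and 1.59 ± 0.21. PDE5A, the cyclic GMP phosphodiesterase, was at 477, 462 and 423 CPM in parental regular medium and 389, 171 and 463 CPM in TIFM. In clone A it went from 634, 574 and 636 CPM to 55.0, 36.9 and 84.1 CPM (−3.40 ± 0.29), a difference of −2.97 ± 0.44 from parental cells (edgeR adjusted p = 0.000524) and −3.33 ± 0.47 from clone B (edgeR adjusted p = 0.00146). HMOX1, CDKN1A, SNAI1, MYC and PDE5A kept both interaction calls when any 1 library was left out.

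The mitosis list differed in many members. In parental cells 7 of 23 members rose (23.5% of all genes did) and 8 fell; in clone B 2 rose (28% of all genes) and 14 fell. The response of clone A was lower than the parental one in 16 of 23 and higher in none, and lower than that of clone B in 10 and higher in none. Over all genes it was lower in 13.2% and higher in 12.9% against parental cells, and 11.7% and 12.5% against clone B. The counts of differences below are to be read against these shares. CCNB1 fell by 0.71 ± 0.11 in parental cells, 2.00 ± 0.21 in clone B and 2.64 ± 0.18 in clone A. The difference was −1.93 ± 0.19 from parental cells (edgeR adjusted p = 2.72e-05) and −0.66 ± 0.26 from clone B (edgeR adjusted p = 0.0806). For mitochondrial DNA transcripts clone A stood apart from both: 2 of 13 rose in parental cells and none fell, none rose and 2 fell in clone B, and the response of clone A was lower than the parental in 8 and lower than that of clone B in 9, with none higher in either test. MT-CO3 differed by −1.17 ± 0.23 and −0.93 ± 0.23. Ribosome biogenesis genes rose in 13 of 21 in parental cells and 16 in clone B, and rose further in clone A in 13 and 10 members. Ribosomal proteins rose in 35 and 26 of 43. The response of clone A was higher in 3 of 43 against parental cells, a share under that of all genes (12.9%). Against clone B it was higher in 10 (12.5% of all genes). By other scalings these counts were 4 and 17 (DESeq2 size factors) and 0 and 9 (total counts alone). For amino acid genes the picture was mixed. Of 15 ATF4 factors the response of clone A was higher in 4 and lower in 2 against parental cells, and higher in 5 and lower in 1 against clone B, with PPP1R15A at 1.82 and 1.69. ATF4 itself (differences of 0.33 and 0.27), ASNS (0.36 ± 0.24 and −0.14 ± 0.22) and PSAT1 (−0.15 and −0.21) were not called in either test, and of 11 serine and one-carbon enzymes 1 was called higher against parental cells (3 were lower with total counts alone) and none against clone B.

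**Figure D4:**
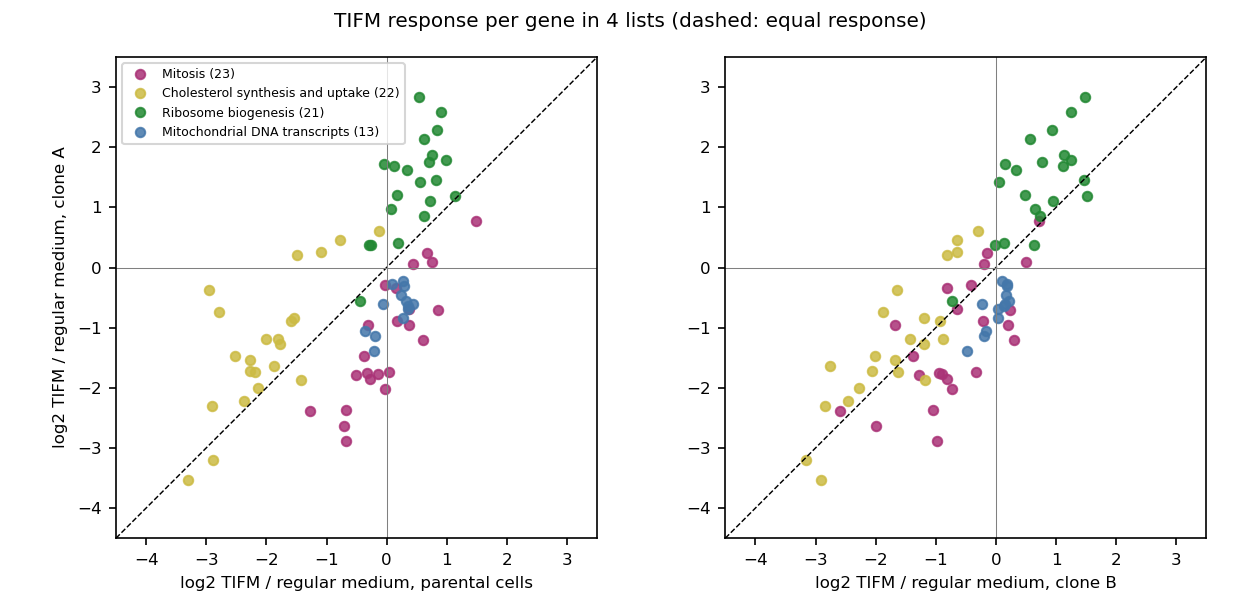
Log2 change from regular medium to TIFM at 1% O2 for each tested gene of 4 lists, in clone A (vertical axis) against parental cells (left) and clone B (right). The dashed line marks equal change. Mitosis genes and mitochondrial DNA transcripts lie mostly below the line, ribosome biogenesis genes mostly above it, and cholesterol genes are low on both axes.

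Further single genes with large differences were MAP2K6, DUSP2, LGR4 and ASTL. MAP2K6, a MAP kinase kinase, had 281 counts in clone A in regular medium and 3 in TIFM, 72.1-fold lower (95% exact interval 24.4 to 352, counting error only). In parental cells it went from 14.5, 11.6 and 11.6 CPM to 6.98, 4.24 and 6.60 CPM and in clone B from 6.33, 12 and 14 CPM to 3.40, 3.12 and 1.66 CPM. DUSP2, a MAP kinase phosphatase, rose in clone A from 1.58, 1.61 and 1.52 CPM to 3.48, 5.58 and 5.33 CPM (1.59 ± 0.28) and fell in parental cells (−1.49 ± 0.28), a difference of 3.09 ± 0.40 (edgeR adjusted p = 0.000204). LGR4 fell by 0.94 ± 0.12 in parental cells and 1.91 ± 0.14 in clone B, and the response of clone A differed from these by −3.61 ± 0.32 and −2.67 ± 0.34. ASTL reached 0.509, 1.03 and 0.593 CPM in parental cells in TIFM and 1.33, 2.62 and 2.49 CPM in clone B, under its 3.34 to 6.67 CPM in clone A.

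The 3 TIFM libraries of clone A had like medians over the genes that TIFM changes in parental cells, which leaves the spread of single genes unmeasured. Over the 713 genes called at least 2-fold higher in parental TIFM (5.4% of those tested) the median change was 1.23, 1.31 and 1.38 in replicates 1, 2 and 3, and over 810 of the 812 genes called at least 2-fold lower (6.15%) it was −1.29, −1.20 and −1.26. The 10 genes with the largest spread are described without a test, having been chosen for it. IER3, an early-response survival gene, was at 23.4, 33.2 and 414 CPM in TIFM and 137, 63.3 and 92.5 CPM in regular medium. NFKBIA, the inhibitor of NF-kB, was at 40.8, 59.3 and 300 CPM, and the kinase gene NUAK1 at 73.9, 89.1 and 388 CPM, so these 3 genes were lower than regular medium in replicates 1 and 2 and higher in replicate 3. FAM43A (7.02, 14.6 and 74.7 CPM) and the pseudokinase TRIB2 (15.1, 19.4 and 82.3 CPM) were also highest in replicate 3. The zinc finger genes ZNF525 (16.3, 12.8 and 2.32 CPM) and ZNF260 (36.1, 29.98 and 5.93 CPM), JRKL (22.9, 18.5 and 3.85 CPM), C2orf69 (50.1, 30.1 and 6.67 CPM) and AC124312.1 (92.0, 60.8 and 14.7 CPM) were lowest in it. In all 10 the replicate apart from the other two was replicate 3, which is also the library with the blood transcripts and the highest ribosomal protein share. Whether these move together for 1 reason was not tested.

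**Figure D5:**
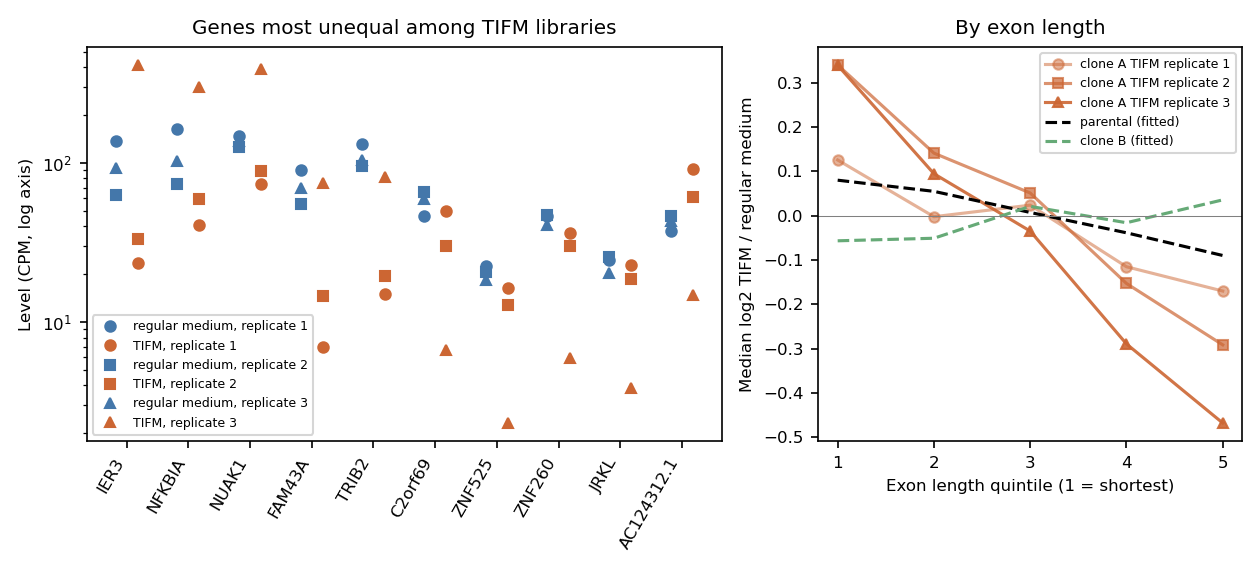
Left: levels (CPM, log axis) of the 10 genes with the largest spread among the 3 TIFM libraries of clone A, beside the regular-medium libraries. Right: median log2 change by exon length in 5 equal bins of genes for each TIFM library, with the fitted medians of parental cells and clone B as dashed lines. IER3 reads 414 CPM in TIFM replicate 3 against 23.4 and 33.2 CPM in replicates 1 and 2, and the slope with length is largest in replicate 3.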

How the data were processed

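The authors deposited a table of raw counts per gene for 27 polyA RNA libraries. The submitters' processing notes name HISAT2, featureCounts and GRCh38; tool versions, annotation and strand setting are not given there. Symbols, positions and shared exon length came from GENCODE v29 (GRCh38), which named 21409 of 21487 identifiers. Groups came from the sample titles. The main test was edgeR 4.0.16 in R 4.3.3 (TMM scaling, filterByExpr with minimum count 10 and minimum total 15, robust quasi-likelihood F test, Benjamini-Hochberg over all tested genes) on the 6 clone A libraries, since a spread pooled over 9 groups would understate that of clone A in TIFM. Differences between genotypes were interaction contrasts in 12 libraries. The scripts were tested on simulated data. Per-library changes used log2 CPM with an offset of 0.5.

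Named genes were the 15 largest called rises and 15 largest called falls at a mean of 5 CPM or more in either medium without overlap, up to 4 called members of each of 41 lists and their textbook marks, the 5 largest called interaction values in each direction at 5 CPM or more, and the 10 genes of largest spread in TIFM at 10 CPM or more. Other list members are named to complete a count and were chosen after their values were seen. Members and lists were chosen with earlier results of these data known. Of 717 listed genes with a row, 594 were tested. The remaining 123 had too few counts, and 44 of them share exon length with another gene. Others had 0 counts in all 6 libraries with no shared exon length, among them the ribosomal protein gene RPS4X and the respiratory chain gene SDHA. The reason was not tested, and 0 counts in this table do not show that a gene is silent. Alternatives were DESeq2 1.42.0, limma 3.58.1 voom weights, other filters and scalings, all 27 libraries, a replicate block and each library left out; scaling by total counts alone was added after seeing the data. Depth of 26057022 to 38341713 counts sets the precision of low genes, and intervals cover counting error only. Some list members are counted but not reported here by name.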

Additional observations from a re-analysis of the deposited data

Results flagged for a closer look

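For 20 values a test of the difference itself found that clone A answered TIFM otherwise than a reference genotype, and these were the largest such differences at 5 CPM or more. Against parental cells the log2 difference was 7.20 for ASTL, 3.98 for HMOX1, 3.8 for IFITM10, 3.09 for DUSP2 and 2.97 for MFSD2A, and −4.98 for MAP2K6, −3.61 for LGR4, −3.61 for ITGB8, −3.46 for TMEM26 and −3.42 for NEURL1B. Against clone B it was 7.26 for ASTL, 3.72 for DHRS2, −4.10 for MAP2K6, −3.48 for SEMA3D, −3.33 for PDE5A, −3.29 for ITGB8 and −3.17 for COX20, of which 72.0% of exon length is shared with HNRNPU. The call of ITGB8 against clone B was lost when any of 3 libraries was left out. Of IFITM10, 22.2% of exon length is shared with another gene.

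The liver transcripts APOB (15.21), AFP (14.78) and ALB (9.98) also passed against clone B. APOB was at 10.4 and 10.5 CPM in clone A TIFM replicates 1 and 2 and at 0 in replicate 3, AFP at 8.30, 7.04 and 0.0494 CPM, and ALB at 7.59, 8.66 and 0 CPM, and all 3 calls were lost without clone B regular-medium replicate 3, itself at 14.2 CPM over the liver transcripts. Fitted values of ASTL, APOB and AFP depend on the prior count, since a group was at or near 0, and are no bound.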

How the results depend on the processing

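The count of genes called for TIFM in clone A stayed within 1.5 times 6981 under every alternative run: 9368 with all 27 libraries in 1 fit, 7211 with DESeq2, 9524 with voom weights, 6586 to 7120 under other filters and 5559 to 8148 with a library left out. The differences between genotypes were less stable. Against parental cells the count of 3539 became 5426 with all 27 libraries, 8334 with voom weights and 2342 to 5711 with a library left out. Against clone B the count of 3252 became 5583, 7871 and 1663 to 6151 in the same order. There, leaving out any of 9 libraries moved it by over 1.5 times: clone A TIFM replicates 1 (6151) and 2 (1663), clone A regular-medium replicates 2 (1948) and 3 (2014), clone B regular-medium replicates 1 (1696), 2 (1985) and 3 (1914), and clone B TIFM replicates 1 (2055) and 2 (1979). The cause was not tested. With total counts alone the higher share of calls fell from 49.2% to 33.8% for clone A, and the calls of at least 2-fold from 45.7% to 27.9% higher. Of 3097 values for 207 results of named genes, 3020 kept their side of the threshold, with the same direction where called. Another 47 lost the call, 25 gained one and 5 reversed with a call in at least 1 of the fits. A change of sign where neither fit called the gene was counted as kept. List medians were less stable: of 599 values for 40 lists, 492 moved by less than the replicate spread and 107 by more, 31 of these with total counts alone and 11 each without TIFM replicate 1 or 3. The reversals concern 3 genes of unequal TIFM libraries that were not called with all 6: IER3 ran from −1.80 without TIFM replicate 3 to 1.24 without replicate 1, NFKBIA from −1.20 to 0.70 and NUAK1 from −0.76 to 0.84 likewise, and all 3 were called lower without replicate 3. With voom weights IER3 was −1.03 and NUAK1 −0.43. The call of RAB17 was lost with no filter on low counts.

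Same-numbered clone A libraries had correlations of deviations of −0.16, 0.05 and 0.03, and differently numbered ones ran from −0.22 to 0.20. With 3 libraries in a group these values cannot decide whether the numbers pair them. With a replicate block the counts were 6579 for clone A, 3489 against parental cells and 3814 against clone B.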
